A study of Drosophila melanogaster with 8 samples.

Results

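The cytoplasmic ribosomal protein genes are described here across 2 embryonic stages and 2 genotypes of Drosophila melanogaster. They were chosen by symbol: a probe set counted where the platform annotation gave it 1 gene, and where that gene's symbol began with RpL, RpS or RpLP and a digit. The rule found 47 probe sets for 41 genes, of 11981 genes with a probe set of their own. RefSeq holds 92 protein-coding genes whose symbols follow the rule, and the other 51 are not analysed here. A further 3 probe sets named a ribosomal protein gene together with another gene and were not used.

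The study measured total RNA of whole dechorionated embryos in which DIMMED, a basic helix-loop-helix factor of peptide-secreting neurons, was expressed in all neurons. The dimm embryos (w;UAS-dimm2A3/+;elav-GAL4/+) carried a myc-tagged dimm transgene (line 2A3) under the neuronal driver elav-GAL4. The control embryos were of the driver line itself, w;;elav-GAL4, so both groups carried the w background and the driver, and they differed in driver dose and in paternal chromosomes as well as in the transgene. Flies were reared at 25 °C, and eggs were collected at 18 °C. The stage 14 collections spanned 22 to 26 h after egg laying by the sample labels (the series text starts them at 24 h), and those of stage 16 spanned 28 to 32 h. Each genotype had 2 arrays at each stage, 8 in all. The series text can be read as giving a pair of arrays to each RNA sample, so the p-values below rest on array-to-array spread that may be technical.

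Ribosomal proteins assemble with ribosomal RNA into a small and a large subunit, which join on messenger RNA to make protein. The subunits are built in the nucleolus by assembly factors, some of which resemble a ribosomal protein and hold its place in the precursor particle. In flies, loss of a single copy of many ribosomal protein genes gives the Minute phenotype of slow growth and thin bristles, and some ribosomal proteins have a second gene with a narrower, often germline, pattern. Neuroendocrine cells are known for heavy protein secretion.

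Values are log2 GCRMA signals, a normalised scale on which 1 unit is a doubling. Each array had 7574 to 7651 probe sets above 4, and 38.4% to 41.1% of probe sets at its lowest value. The number of arrays limits the precision. The lowest value was 2.1816 on the 4 arrays of stage 14 and 2.18606 on those of stage 16, a difference that normalising each stage on its own would produce. Levels set across the stages carry that limit. The dimm probe set read 2.86 and 2.80 in stage 14 control embryos, 7.59 and 7.66 in stage 14 dimm embryos, 2.53 and 2.68 in stage 16 control embryos and 5.51 and 8.26 in stage 16 dimm embryos. It was thus higher on every dimm array, by 4.54 ± 0.59 (SE) averaged over the stages (adjusted p = 0.0386, limma). The call was lost without any 1 of the 4 stage 14 arrays or either stage 16 control array, with an adjusted p (limma) of up to 0.231. Replicate 1 of both genotypes at stage 16 stood apart: the control probe set for the 5′ end of actin read 4.72 and 5.64 on these arrays and 9.47 to 11.3 on the other 6. Values without both arrays are given where leaving them out changed a call, a direction or a count by over 1.5 times. Each stage 16 group then holds 1 array, and the spread in that fit comes from the stage 14 arrays alone. Its effect sizes and directions are therefore given without p-values or counts of calls. The neuronal marker elav averaged 12.2 at stage 14 and 11.6 at stage 16 in both genotypes. By sign alone, 2 of 4 tested neuronal markers were higher and 2 lower at stage 16 in each genotype. Their changes ran from -0.65 to 4.20 in control embryos and from -0.60 to 4.18 in dimm embryos. Without both replicate 1 arrays of stage 16, 3 were higher and 1 lower in control embryos, and 2 and 2 in dimm embryos, again by sign. In whole embryos, fewer cells of a type and less RNA per cell cannot be told apart.

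Most of these genes gave signals among the brightest on the array. On all 8 arrays 29 of the 41 genes (70.7%) lay above 14, against 109 of 18769 probe sets (0.581%). The brightest value on an array was 15.6 to 15.8, and RpL41, which encodes a very short protein of the large subunit, lay between 15.65 and 15.78 on every array. The members therefore sat close to the top of the range, and whether differences were compressed there was not tested. Among the 35 tested genes the probe sets of 17 are specific by the platform's naming, 4 take in several transcripts of a gene, and 14 hold probes that also match other transcripts. For those 14 a near-identical copy could contribute to the signal.

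**Figure D1:**
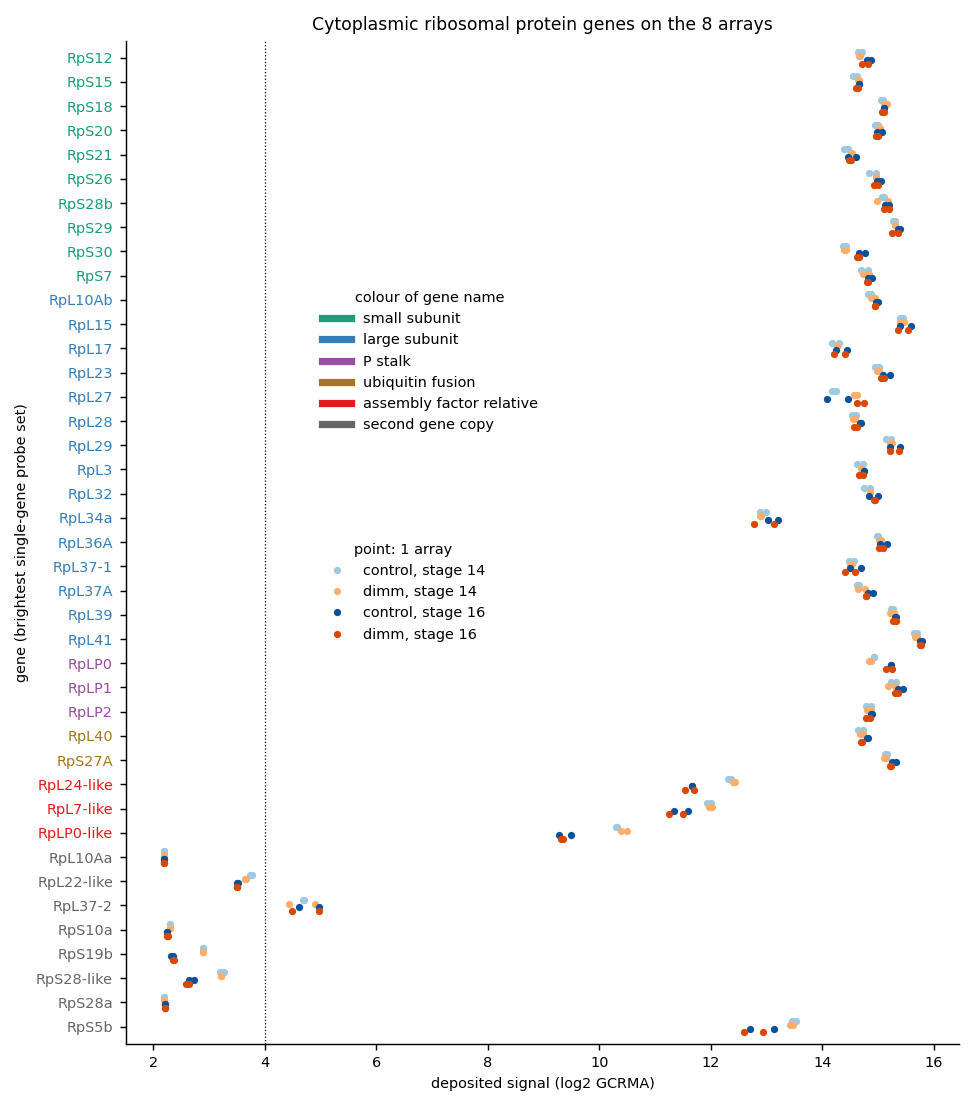
Deposited log2 GCRMA signal of the ribosomal protein genes on each of the 8 arrays, 1 point per array, with gene names coloured by role. The 29 genes above 14 form a narrow band, the assembly-factor relatives lie between 9.28 and 12.4, and 6 genes stay below 4 on every array.

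By role, the 10 tested small-subunit genes ranged from 14.4 to 15.4 over all arrays and the 15 large-subunit genes from 12.8 to 15.8. RpL34a was the one large-subunit gene below 14 throughout. It read 12.99 and 12.88 in stage 14 control embryos, 12.88 and 12.89 in stage 14 dimm embryos, 13.20 and 13.01 in stage 16 control embryos and 13.12 and 12.78 in stage 16 dimm embryos. Between genotypes at a stage and between stages in a genotype, only the 2 control groups did not overlap, with the stage 16 arrays higher. The stalk proteins RpLP0, RpLP1 and RpLP2, which recruit elongation factors to the large subunit, lay between 14.8 and 15.4. RpS27A and RpL40, each made as a fusion with ubiquitin, lay between 14.6 and 15.3.

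The second gene copies were mostly near background. Of 8 such genes only RpS5b and RpL37-2 passed the filter of 4 on at least 2 arrays, and the other 6 lay below 4 on every array. RpL10Aa and RpS28a sat between 2.18 and 2.21, next to the floor. RpS19b, known from the germline, read 2.90 on all 4 stage 14 arrays and 2.35, 2.31, 2.38 and 2.35 on the stage 16 arrays. RpS28-like read 3.27, 3.19, 3.22 and 3.22 at stage 14 and 2.74, 2.63, 2.63 and 2.59 at stage 16. RpL22-like, known from the testis, read 3.74 and 3.77 in stage 14 control embryos, 3.65 and 3.65 in stage 14 dimm embryos and 3.49 to 3.52 at stage 16, and RpS10a lay at or under 2.29. These values are too near background to be read as levels, and none of the 6 genes was tested. RpL37-2 gave 4.68 and 4.70 in stage 14 control embryos, 4.90 and 4.43 in stage 14 dimm embryos, 4.98 and 4.62 in stage 16 control embryos and 4.97 and 4.48 in stage 16 dimm embryos. Its groups overlapped throughout, and its partner RpL37-1 lay between 14.41 and 14.70.

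The ribosomal protein genes also varied little between arrays of a group. The median residual SD was 0.0552 over the 35 genes, 0.189 over the 8258 tested probe sets and 0.0703 over the 101 other tested probe sets with a mean above 14. The lower spread was thus shared by these other bright probe sets, which can include ribosomal protein genes outside the rule. In control embryos the median absolute difference between the 2 arrays was 0.0722 for the members and 0.0646 for all probe sets at stage 14, but 0.0829 and 0.330 at stage 16. In dimm embryos it was 0.0445 and 0.0843 at stage 14 and 0.0589 and 0.292 at stage 16.

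The first comparison asked whether dimm in all neurons changed these genes. None of the 35 tested ribosomal protein genes passed the threshold in either direction, averaged over the stages, at stage 14 or at stage 16, as deposited or after centring each array on the median of its tested probe sets. The background was 0.969% of tested probe sets higher and 0.533% lower for the average, 0.291% and 0.0484% at stage 14, and 0.218% and 0.145% at stage 16, by limma with Benjamini-Hochberg adjustment. After centring it was 0.751% and 0.472%, 0.266% and 0.0969%, and 0.23% and 0.0848%. At an unadjusted p under 0.05 the average called 1 member, RpL27, of 35, and 994 of 8258 probe sets. The median change of the members was -0.011 as deposited and -0.027 after centring, against 0.0015 and -0.014 over all tested probe sets. The members' changes had an SD of 0.0783, against 0.302 over all tested probe sets. Standard errors of the members ran from 0.0531 to 0.173, with a median of 0.0605, and a difference of several standard errors, that of RpL27, did not pass.

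RpL27, a protein of the large subunit, had the largest difference. It read 14.24 and 14.16 in stage 14 control embryos and 14.57 and 14.62 in stage 14 dimm embryos, then 14.46 and 14.08 in stage 16 control embryos and 14.75 and 14.61 in stage 16 dimm embryos. It was the only member whose dimm arrays lay above the control arrays at both stages, as did 6.78% of all tested probe sets. No member lay below at both stages, where 5.26% of all did. The difference was 0.40 ± 0.10 averaged over the stages, or 1.32-fold, and did not pass the threshold (adjusted p = 0.184, limma). It was 0.40 ± 0.15 at stage 14 (adjusted p = 0.55) and 0.41 ± 0.15 at stage 16 (adjusted p = 0.522), by the same fit. Without both replicate 1 arrays of stage 16 the average was 0.47. That fit keeps 1 array in each stage 16 group and takes its spread from the stage 14 arrays, so its p-value is not given. After centring, the value in the fit without a replicate block was 0.39 ± 0.11 (adjusted p = 0.247, limma). With the replicate block the average passed the threshold, centred or not.

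The other 34 members differed between genotypes by at most 0.10 on the log2 scale when averaged over the stages, a range of 0.931-fold to 1.02-fold. The lowest were RpL34a at -0.10 ± 0.10 and RpS5b at -0.10 ± 0.13, followed by RpL37-1 and RpLP0 at -0.06 each. Neither of the first 2 passed the threshold (adjusted p = 0.874 and 0.949, limma). RpL32, whose transcript is often used as a reference in quantitative PCR, read 14.84 and 14.75 in stage 14 control embryos, 14.85 and 14.85 in stage 14 dimm embryos, 15.002 and 14.84 in stage 16 control embryos and 14.95 and 14.93 in stage 16 dimm embryos. Its average difference was 0.03 ± 0.06, within the spread of the arrays (adjusted p = 0.998, limma).

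At stage 14 the sign of the small differences turned with the centring, and at stage 16 most members were slightly lower in dimm embryos under each centring. At stage 14, 24 of 35 members were higher in dimm embryos as deposited, but 5 of 35 after centring on the tested probe sets and 25 of 35 after centring on all probe sets. Their median was 0.022 as deposited and -0.040 after centring on the tested probe sets, and that of all tested probe sets was 0.024 and -0.038. At stage 16, 2 of 35 were higher as deposited (RpL27 and RpL32), 7 after centring on the tested probe sets and 5 after centring on all probe sets. The members' median there was -0.054 as deposited and -0.024 after centring on the tested probe sets, against -0.023 and 0.0067 over all. When both replicate 1 arrays of stage 16 were left out, 7 of 35 members were higher at that stage as deposited. The members' median was then -0.043. The dimm arrays lay above the control arrays for 9 of 35 members at stage 14, where 33% of tested probe sets did so, and below them for 1, RpLP0, where the background was 19.3%. At stage 16 they lay above for 1 member, against 9.69%, and below for 11, against 12.4%. After centring on the tested probe sets these counts were 2 above (19.9% of all) and 12 below (40%) at stage 14, and 1 above (15.8%) and 1 below (9.28%) at stage 16.

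Within the stages the largest differences other than that of RpL27 were also small. At stage 14 RpLP0-like was higher by 0.12 ± 0.10, and RpLP0 was the lowest at -0.07 ± 0.08. At stage 16 RpL34a stood at -0.16 ± 0.14 and RpS5b at -0.16 ± 0.18. None of these passed the threshold. RpS15 alone had dimm arrays above the control arrays at stage 14 and below them at stage 16, as did 1.49% of all tested probe sets. The effect of dimm was also compared between the stages, and again 0 members were called, against 0% of probe sets higher and 0.0121% lower, with 0 of 35 members and 249 of 8258 probe sets at an unadjusted p under 0.05.

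**Figure D2:**
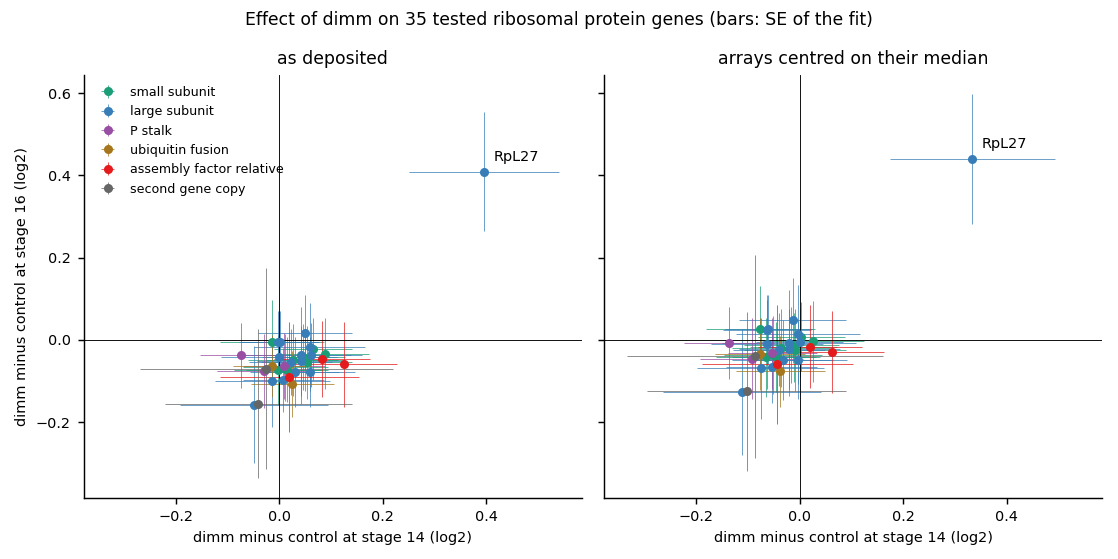
Effect of dimm (dimm minus control, log2) at stage 14 on the horizontal axis and at stage 16 on the vertical axis for the 35 tested ribosomal protein genes, as deposited on the left and centred on the right, with bars for the SE of the fit. RpL27 lies apart at 0.40 and 0.41 as deposited, and the other genes lie within 0.16 of 0 on both axes.

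The second comparison asked how the genes changed from stage 14 to stage 16. Most did not pass the test as deposited, while 3 relatives of ribosomal proteins that act in assembly fell. As deposited, 2 of 35 members rose in control embryos, where 21.8% of tested probe sets did, and 4 fell, where 39% did. In dimm embryos 1 rose (20.7% of all) and 4 fell (42.8%). The members' median change was 0.10 in control and 0.03 in dimm embryos, against -0.38 and -0.44 over all tested probe sets. The distance between the members' median and that of all probe sets was 0.48 in control and 0.47 in dimm embryos, and centring leaves such a distance as it is.

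RpLP0-like, whose yeast relative Mrt4 holds the place of the stalk protein in the precursor of the large subunit, fell most. It read 10.30 and 10.32 in stage 14 control embryos and 9.28 and 9.49 in stage 16 control embryos, then 10.49 and 10.38 in stage 14 dimm embryos and 9.35 and 9.31 in stage 16 dimm embryos. The stages did not overlap. The change was -0.92 ± 0.10 in control embryos, to 0.527 of the stage 14 signal (adjusted p = 0.000745, limma), and -1.11 ± 0.10 in dimm embryos, to 0.464 (adjusted p = 0.000342). RpL24-like, whose yeast relative Rlp24 acts in the same precursor, also fell. It read 12.36 and 12.30, then 11.66 and 11.66 in control embryos, and 12.44 and 12.39, then 11.70 and 11.53 in dimm embryos. Again the stages did not overlap, and the change was -0.67 ± 0.09 (adjusted p = 0.0018, limma) and -0.80 ± 0.09 (adjusted p = 0.000838). No single array, when left out, ended the call of either gene, with adjusted p (limma) up to 0.0186. Both genes also passed the threshold after centring on the tested probe sets, at -0.71 and -0.80 for RpLP0-like and -0.46 and -0.49 for RpL24-like.

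RpL7-like, related to the yeast assembly factor Rlp7, read 12.01 and 11.93, then 11.59 and 11.33 in control embryos, and 12.01 and 11.96, then 11.50 and 11.24 in dimm embryos. All its stage 16 arrays were below its stage 14 arrays. It fell by 0.51 ± 0.13 in control embryos (adjusted p = 0.0212, limma) and by 0.61 ± 0.13 in dimm embryos (adjusted p = 0.0101). After centring on the tested probe sets the changes were -0.29 (adjusted p = 0.136, limma) and -0.31 (adjusted p = 0.119), which no longer passed. In control embryos its call was lost without replicate 1 of the stage 14 controls (adjusted p = 0.106), without replicate 2 of them (0.0744) and without replicate 2 of the stage 16 controls (0.0662), and in dimm embryos without replicate 1 at stage 14 (0.0568), all by limma.

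RpS5b, the second gene for a protein of the small subunit and known from the female germline, was the fourth member to fall. Control embryos read 13.53 and 13.46 at stage 14 and 13.13 and 12.71 at stage 16. Dimm embryos read 13.43 and 13.48, then 12.93 and 12.59. The stages did not overlap, and the change was -0.57 ± 0.18 in control embryos (adjusted p = 0.0377, limma) and -0.69 ± 0.18 in dimm embryos (adjusted p = 0.0196). After centring on the tested probe sets it was -0.36 (adjusted p = 0.159, limma) and -0.38 (adjusted p = 0.139). In control embryos the call was lost without either stage 14 array of either genotype or without replicate 2 of the stage 16 controls, with adjusted p (limma) from 0.0726 to 0.149. In dimm embryos it was lost without either stage 14 dimm array or without replicate 2 of the stage 16 dimm embryos, with 0.0754 to 0.091.

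Some germline and maternal markers were lower at stage 16, as RpS5b was. Of 13 such markers 10 had a probe set and 5 were tested, of which bam (-3.22), aub (-3.16) and mael (-2.27) fell in control embryos and none rose. In dimm embryos 3 of 5 fell, and 2 of 5 after centring on the tested probe sets. Of all tested probe sets 39% and 42.8% fell. The log2 of the list's summed signal was 10.8 to 10.9 in stage 14 control embryos, 9.93 to 10.7 in stage 16 control embryos, 10.9 to 11.0 in stage 14 dimm embryos and 10.6 to 10.8 in stage 16 dimm embryos. The defining germ-cell markers vas, piwi and zpg lay below 4 on every array, and vas was at the floor. Their part in the change of RpS5b was not tested.

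RpLP0, the base of the stalk and the protein that RpLP0-like resembles, rose. It read 14.92 and 14.92 in stage 14 control embryos, 15.23 and 15.24 in stage 16 control embryos, 14.86 and 14.83 in stage 14 dimm embryos and 15.25 and 15.14 in stage 16 dimm embryos. The stages did not overlap, and the rise was 0.31 ± 0.08 or 1.24-fold in control embryos (adjusted p = 0.0181, limma) and 0.35 ± 0.08 or 1.27-fold in dimm embryos (adjusted p = 0.0115). It passed after centring on the tested probe sets too, at 0.52 and 0.65. Its call in control embryos was lost without replicate 1 (adjusted p = 0.0871, limma) or replicate 2 (0.0876) of the stage 14 controls, and in dimm embryos without replicate 2 at stage 14 (0.0611). The partner stalk proteins RpLP1 and RpLP2 changed by 0.13 ± 0.09 and 0.05 ± 0.08 in control embryos and did not pass (adjusted p = 0.265 and 0.581, limma).

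RpS30, a protein of the small subunit, read 14.43 and 14.37 in stage 14 control embryos and 14.77 and 14.65 in stage 16 control embryos. In dimm embryos it read 14.39 and 14.42, then 14.63 and 14.66, with the stages apart in both genotypes. It rose by 0.31 ± 0.08 in control embryos (adjusted p = 0.0206, limma), and the change of 0.23 ± 0.08 in dimm embryos missed the threshold (adjusted p = 0.0503). The change in dimm embryos minus that in control embryos was -0.08 and did not pass (adjusted p = 1, limma). The call in control embryos was lost without replicate 1 (adjusted p = 0.0734, limma) or replicate 2 (0.111) of the stage 14 controls and without replicate 1 of the stage 16 controls (0.0556). When both probe sets of the gene were averaged the change fell to 0.02 (adjusted p = 0.825, limma).

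Without both replicate 1 arrays of stage 16, all 6 genes named above kept the direction of their change in both genotypes. The values were then -0.82 and -1.13 for RpLP0-like, -0.67 and -0.89 for RpL24-like, -0.63 and -0.74 for RpL7-like, -0.78 and -0.86 for RpS5b, 0.31 and 0.30 for RpLP0, and 0.26 and 0.25 for RpS30, control embryos first. That fit called 2 members higher in each genotype (26.9% of tested probe sets in control and 25.7% in dimm embryos) and 4 lower (51% and 54%).

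**Figure D3:**
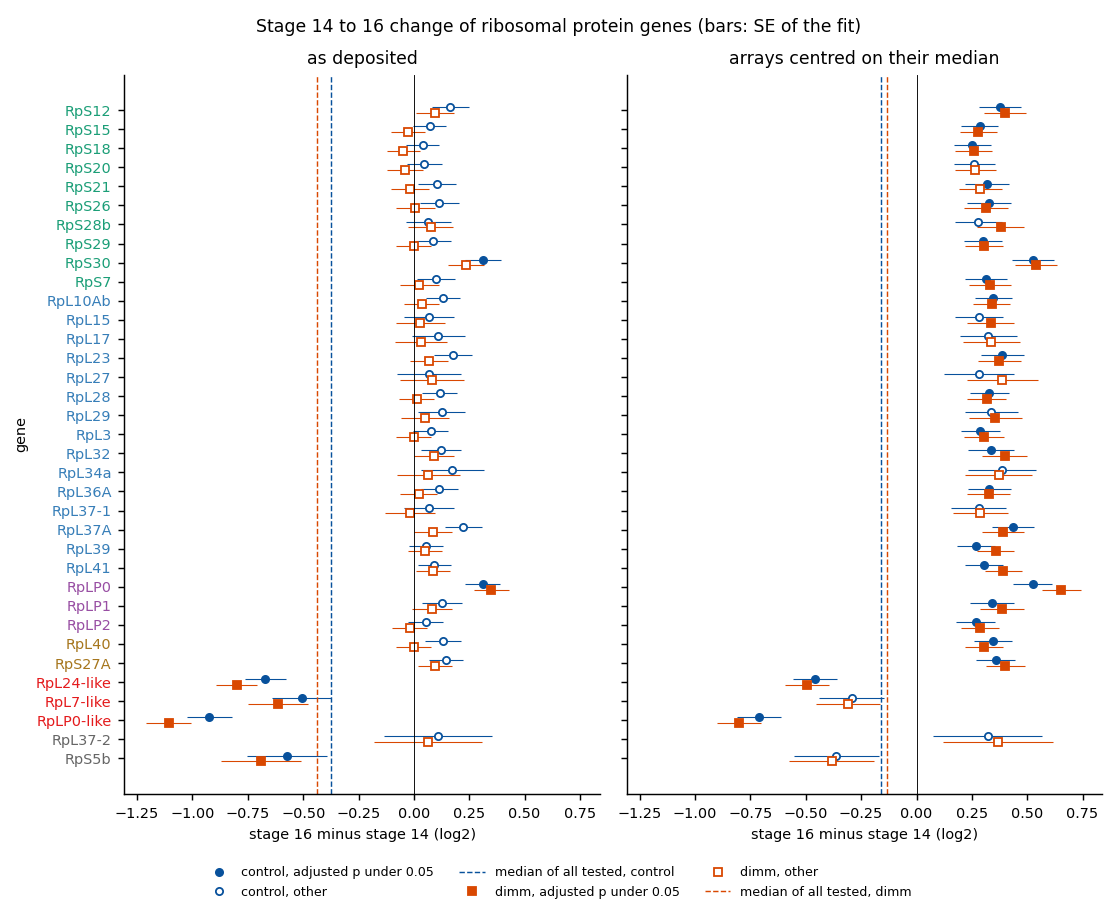
Change from stage 14 to stage 16 (log2) of each tested ribosomal protein gene in control embryos (blue circles) and dimm embryos (orange squares), filled where the adjusted p was under 0.05, with bars for the SE of the fit and dashed lines for the median of all tested probe sets. As deposited most genes lie near 0 and to the right of the dashed lines at -0.38 and -0.44, and RpLP0-like, RpL24-like, RpL7-like and RpS5b lie to the left of 0.

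Apart from the 3 assembly-factor relatives and the 2 second copies, 30 tested genes encode proteins of the ribosome itself, and these moved as a narrow group. As deposited all 30 were higher at stage 16 in control embryos, with a median of 0.11 and a range from 0.04 to 0.31. In dimm embryos 21 of 30 were higher, with a median of 0.03 and a range from -0.05 to 0.35. With the replicate 1 arrays of stage 16 left out, 28 of 30 were higher in control embryos, with a median of 0.073 and a lowest value of -0.12 (RpL27), and 17 of 30 in dimm embryos, with a median of 0.026. The median of all tested probe sets shifted by 0.21 in control and 0.31 in dimm embryos when arrays were centred on the tested probe sets, and the members shifted with it. All 30 were then higher in both genotypes, and 22 in control embryos (26.4% of all tested probe sets were called higher) and 24 in dimm embryos (27.4%) passed. The median change of the 30 genes became 0.33 and 0.34, and the lowest was 0.25 in control embryos. In the same centred fit RpLP0-like and RpL24-like were the 2 members called lower in each genotype, against 29.9% and 30.1% of all probe sets. Centring on the median of all probe sets, which lies near the floor, gave the opposite shift: 26 and 12 of the 30 genes were then higher, with medians of 0.05 and -0.025. In control embryos most of the 30 genes were thus higher under each centring, and the size of the change depended on which median was held fixed. In dimm embryos the direction of the median change depended on it too.

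The arrays of the stages were apart for 22 of 35 members in control embryos as deposited, with stage 16 above, where 29.4% of all tested probe sets were, and for 4 with stage 16 below, where 55.1% were. In dimm embryos it was 8 above (27.9%) and 6 below (57.7%). After centring on the tested probe sets it was 31 above (35.7%) and 4 below (46.2%) in control embryos and 30 above (36.6%) and 4 below (45.2%) in dimm embryos. As deposited 7 members were above in both genotypes (26.2% of all), namely RpLP0, RpS30, RpL23, RpL37A, RpL41, RpS12 and RpS27A, and the 4 genes that fell were below in both (53%). RpL37A read 14.65 and 14.62, then 14.90 and 14.82 in control embryos, and 14.76 and 14.63, then 14.77 and 14.79 in dimm embryos. Its change of 0.22 ± 0.09 in control embryos missed the threshold as deposited (adjusted p = 0.0671, limma) and was 0.44 after centring on the tested probe sets (adjusted p = 0.0103).

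Other bright probe sets had similar median changes. The 29 members with a mean above 14 had a median change of 0.32 in control and 0.34 in dimm embryos after centring on the tested probe sets, and the other 101 probe sets with a mean above 14 had 0.27 and 0.31. Of the members 22 and 24 (75.9% and 82.8%) were called higher, and of the others 46 and 58 (45.5% and 57.4%), with 0 lower in each. All 29 members had a positive change in both genotypes, while 12 and 11 of the others had a negative one. The SD of the changes was 0.068 and 0.081 over the members and 0.36 and 0.35 over the others. As deposited the medians were 0.11 and 0.03 for the members and 0.06 and 0.0059 for the others. The median shift of the members after centring was thus close to that of the other bright probe sets, while the share called and the spread differed. Those 101 lie outside the symbol rule only, so they can hold ribosomal protein genes. RACK1, at 14.8 to 14.9 on every array, is 1 of them. The part of signal strength in it was not tested.

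Genes with several probe sets give a view of how far a gene's value depends on its probes. RpL3, a protein near the catalytic centre of the large subunit, lay between 14.62 and 14.75 on every array by its brightest probe set. A second RpL3 probe set read 9.02 and 8.76 in stage 14 control embryos, 8.97 and 8.31 in stage 14 dimm embryos, 3.74 and 7.12 in stage 16 control embryos and 4.08 and 6.58 in stage 16 dimm embryos. Its 2 lowest values were those of the replicate 1 arrays of stage 16. Its change was -3.46 ± 1.29 in control embryos and -3.31 ± 1.29 in dimm embryos, which did not pass (adjusted p = 0.0631 and 0.0696, limma). Without both replicate 1 arrays it was -1.77 and -2.06. The control probe set for the 5′ end of eIF-4a read 7.80 and 8.70 on these arrays and 11.4 to 12.5 on the other 6, while the one for its 3′ end lay between 14.9 and 15.1 throughout. The part of RNA quality in the second RpL3 probe set was not tested. The remaining RpL3 probe set stayed at or under 3.01.

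RpS30 had a second probe set at 5.95 and 5.82 in stage 14 control embryos, 5.94 and 6.12 in stage 14 dimm embryos, 5.61 and 5.64 in stage 16 control embryos and 5.45 and 5.65 in stage 16 dimm embryos. It was lower at stage 16 on every array, opposite to the brightest probe set. The change was -0.26 ± 0.12 in control embryos (adjusted p = 0.0988, limma) and -0.47 ± 0.12 in dimm embryos (adjusted p = 0.0155), and -0.17 in dimm embryos after centring on the tested probe sets (adjusted p = 0.277). A second RpS29 probe set, between 14.20 and 14.50, changed by -0.02 and -0.18, against 0.09 and -0.0004 for the brightest, and none of these passed. The remaining RpS29 probe set and a second RpS7 probe set lay next to the floor.

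**Figure D4:**
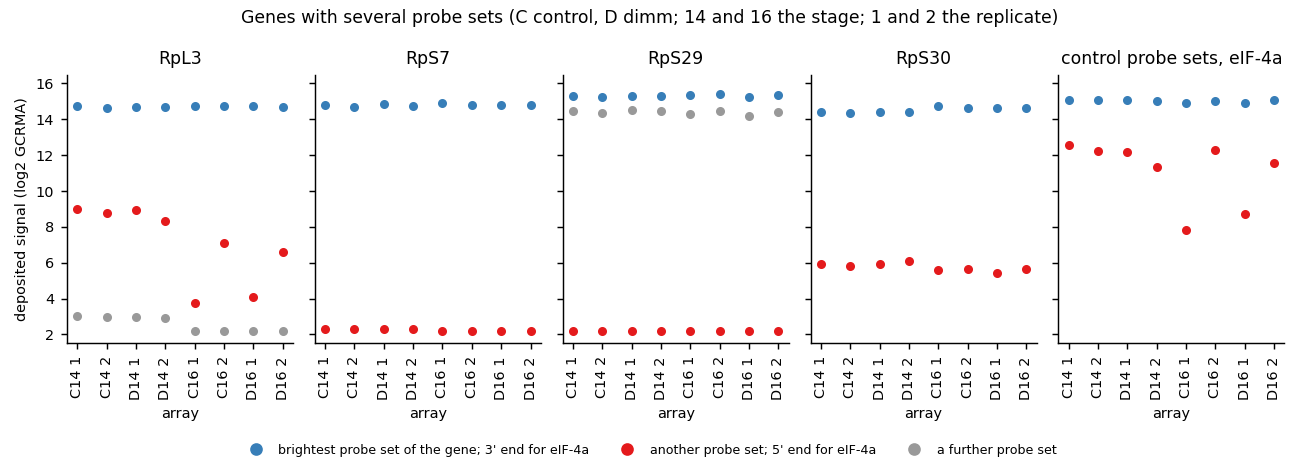
Deposited log2 GCRMA signal on each array of all probe sets of RpL3, RpS7, RpS29 and RpS30, and of the control probe sets for the 3′ and 5′ ends of eIF-4a. The second RpL3 probe set drops to 3.74 and 4.08 on the replicate 1 arrays of stage 16, the arrays on which the 5′ end of eIF-4a reads 7.80 and 8.70.

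The wider machinery was set beside the members through lists of other genes. Ribosome assembly factors fell at stage 16: of 31 tested, 23 in control embryos and 25 in dimm embryos were lower and 0 higher, with medians of -0.85 and -0.97, against 39% and 42.8% of all tested probe sets lower and medians of -0.38 and -0.44. Examples in control embryos were Nol9 at -1.77 and bys at -1.56, both factors of ribosomal RNA processing. The direction held after centring on the tested probe sets, with medians of -0.64 and -0.67 and 14 and 16 genes lower. The 3 assembly-factor relatives among the members moved in the same direction as this list. RNA polymerase I and III genes, which transcribe ribosomal RNA, 5S RNA and transfer RNA, were lower for all 13 tested in both genotypes, with medians of -1.10 and -1.16. Among them were Taf1B at -4.59 and Polr3A at -2.55.

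Translation factors changed less. Of 29 tested, 1 rose and 7 fell in control embryos and 1 rose and 9 fell in dimm embryos, with medians of -0.23 and -0.35. Of all tested probe sets 21.8% and 20.7% rose and 39% and 42.8% fell. When the replicate 1 arrays of stage 16 were left out, the medians were -0.19 in control and -0.32 in dimm embryos. After centring on the tested probe sets the medians were -0.022 and -0.041. The elongation factor eEF2 fell by 0.91 and eEF1alpha2 rose by 0.86 in control embryos. Mitochondrial ribosomal proteins rose for 12 of 69 in control and 9 of 69 in dimm embryos, with 0 falls and medians of 0.29 and 0.20, or 0.50 and 0.51 after centring on the tested probe sets, where 21.8% and 20.7% of all probe sets rose as deposited. This list had, without the replicate 1 arrays of stage 16, medians of 0.093 in control and 0.043 in dimm embryos. mRpL46 at 1.10 and mRpL21 at 0.99 were the largest of these in control embryos. Of the list of other cytoplasmic ribosomal proteins RACK1 alone had a value, at 0.07 and 0.04, and it did not pass as deposited. Of 12 tested growth-control genes, 4 fell in control and 5 in dimm embryos and none rose, shares of 33.3% and 41.7% that lie near the 39% and 42.8% of all tested probe sets. The median of this list was -0.63 in control and -0.55 in dimm embryos, and -0.23 and -0.53 without the replicate 1 arrays of stage 16. Among the genes that fell in control embryos were the promoter factor M1BP at -1.13 and Dref at -0.86.

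**Figure D5:**
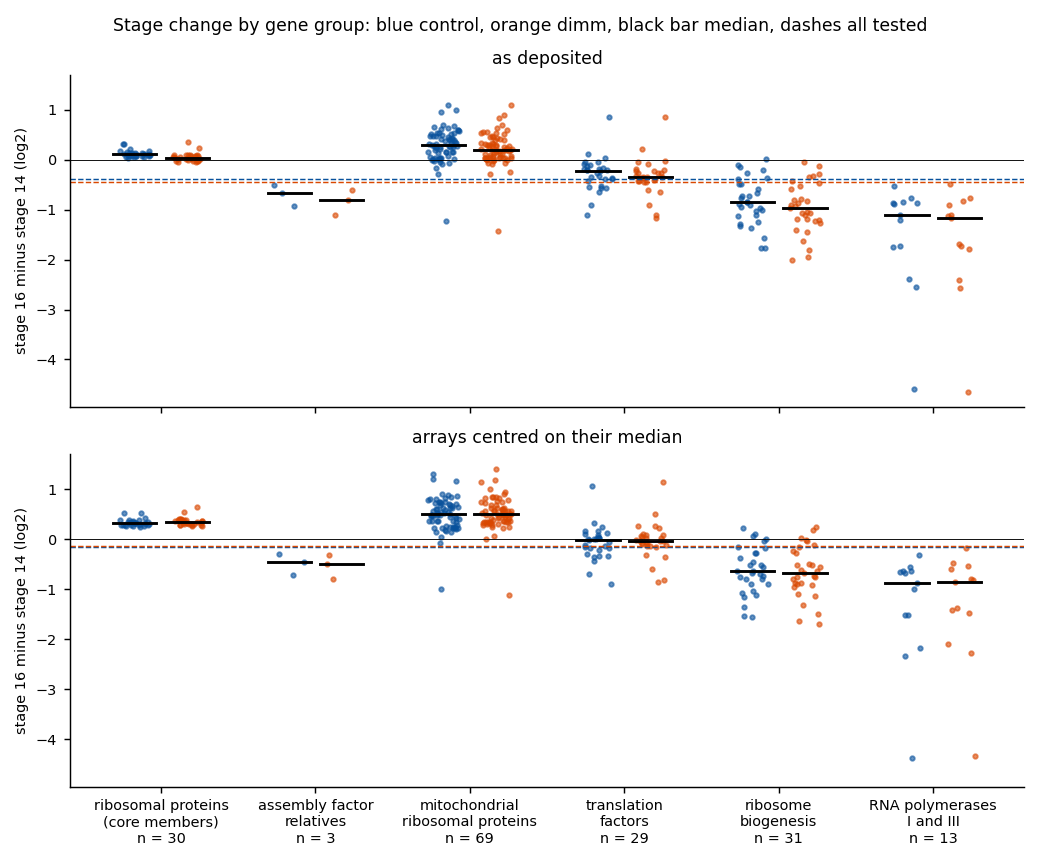
Change from stage 14 to stage 16 (log2) of the genes of each group, 1 point per gene, in control embryos (blue) and dimm embryos (orange), with black bars for medians and dashed lines for the median of all tested probe sets, as deposited above and centred below. Most ribosome assembly factors and all RNA polymerase I and III genes lie below 0 in both panels. Their medians in control embryos as deposited are -0.85 and -1.10, and the ribosomal proteins lie in a narrow band.

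In the comparison of dimm with control embryos averaged over the stages, these lists held few calls, and 0.969% of all tested probe sets were higher and 0.533% lower. Among ribosome assembly factors RIOK1, a kinase of small-subunit maturation, fell by 0.65 ± 0.07 (adjusted p = 0.023, limma). Among RNA polymerase I and III genes Polr1E rose by 0.75 ± 0.09 (adjusted p = 0.0302, limma). No translation factor, growth-control gene or mitochondrial ribosomal protein passed, with medians of 0.03, -0.07 and 0.06. Without both replicate 1 arrays of stage 16, 3 mitochondrial ribosomal proteins were higher, in the fit that called 4.79% of probe sets higher. Of the 5 germline and maternal markers mael, a piRNA pathway gene, rose by 3.38 ± 0.23 (adjusted p = 0.00715, limma).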

How the data were processed

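Whole dechorionated embryos were measured on 8 Affymetrix Drosophila Genome 2.0 arrays, 2 in each of 4 groups. The deposited table holds log2 signals of probe sets that the authors made with GCRMA, per the submitters' processing notes with GCRMA 2.22.0 in R 2.12.1. GCRMA combines a background correction based on probe sequence with quantile normalisation and a summary per probe set. Array-wide differences in total signal are thus removed before deposit among arrays that were normalised together. Per the submitters' processing notes limma was also named, without a version. The sources used here do not give whether the 8 arrays went through GCRMA as 1 set.

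From the deposited log2 values, 183 control probe sets were left out, and the 8258 probe sets above 4 on at least 2 arrays were tested. A fit of the 4 group means with limma 3.58.1 in R 4.3.3 had 4 residual and 1.45 prior degrees of freedom. P-values were adjusted with the Benjamini-Hochberg method over all 8258 probe sets, with a threshold of 0.05. Errors beside changes are standard errors of that fit. A gene is represented by its probe set with the highest mean. Each fit was run on the values as deposited and after subtracting from every array the median of its tested probe sets. The fits were checked on simulated data.

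Probe sets were named from the platform annotation, and all 41 genes matched a RefSeq gene of the same symbol. The members, the other gene lists and the tests were chosen with earlier results of these data known, and the grouping of members by role was made after their values were seen. Genes were named by a rule: dimm, members past the threshold (at most the 8 of largest change in a direction), the 5 largest rises and falls of each contrast, members with a paralog, members below the filter, genes whose probe sets disagreed by more than 0.5, and up to 4 genes past the threshold of each other list. Alternatives changed the centring, the floor, the filter, the treatment of the spread (an intensity trend, array weights, arrays averaged per group), the choice of probe set, the arrays left out and the use of the replicate number.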

Additional observations from a re-analysis of the deposited data

Results flagged for a closer look

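RpS15, a protein of the small subunit, had dimm arrays above the control arrays at stage 14 (14.65 and 14.64 against 14.63 and 14.56) and below them at stage 16 (14.59 and 14.64 against 14.66 and 14.66), as did 1.49% of all tested probe sets. The effect of dimm at stage 16 minus that at stage 14 was -0.10 on the log2 scale. In the fit across all probe sets this difference did not pass (adjusted p = 1, limma), and after centring on the tested probe sets the arrays no longer lay on opposite sides. Groups of 2 arrays are too small for a test of single outlying arrays.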

How the results depend on the processing

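With 2 arrays a group and signals near the top of the range, differences as large as 0.40 ± 0.10 (RpL27, dimm) and stage changes of 0.23 (RpS30, dimm embryos) and 0.22 (RpL37A, control embryos) did not pass. The fit without both stage 16 replicate 1 arrays keeps 1 array in each stage 16 group, and its calls are set aside here. Otherwise the dimm effect on the members stayed at 0 calls except for 1 gene higher, RpL27. It was called in the average in both fits with the replicate block, and at stage 14 with array weights. The members' median effect at stage 14 moved to -0.040 and that of the difference between stages to 0.0071 after centring on the tested probe sets. The stage change depended most on centring: on the tested probe sets, 22 genes were higher and 2 lower in control embryos and 24 and 2 in dimm embryos, with medians of 0.32 and 0.33. On all probe sets the medians were 0.041 and -0.030. In control embryos members called higher numbered 10 without the filter, 5 with an intensity trend, 1 with array weights and 1 with probe sets averaged per gene. In dimm embryos they numbered 4 without the filter and 2 with the floor at 4 or with an intensity trend. The shares of all probe sets called in these fits are not given here, so these counts are not read as a result about the members. Leaving out each array in turn gave 0 to 2 genes higher and 2 to 4 lower in each genotype. The slightly negative changes of 9 genes in dimm embryos turned positive after centring: RpL3 0.30, RpL37-1 0.29, RpL40 0.30, RpLP2 0.29, RpS15 0.28, RpS18 0.26, RpS20 0.27, RpS21 0.29 and RpS29 0.31, of which RpL37-1, RpS20 and RpS21 did not pass. The causes were not tested.

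Replicate numbers recur in every group. Arrays sharing a number deviated from their group means with a correlation of 0.906 between genotypes at stage 16 (0.724 over the members). It was 0.155 at stage 14 (-0.351 over the members) and from -0.0241 to 0.134 across stages. At stage 16 arrays sharing a number thus moved together, which was not seen at stage 14 or across stages. The labels do not say what a number marks, and the fits in the Results leave it out. With the replicate block, probe sets called for the average dimm effect went from 80 higher and 44 lower to 367 and 272, 1 of them a member, RpL27 (adjusted p = 0.0463, limma). Members higher at stage 16 in dimm embryos then numbered 2, where 26.5% of all probe sets were called higher. The block with centring, chosen after seeing the data, gave 1 member higher for the average dimm effect, where 4.64% of all probe sets were. For stage it gave 29 and 30 members higher (34.1% and 35.6% of all) and 4 lower in each genotype (45% and 44.6%). The members' median stage changes were 0.32 and 0.33, and the dimm medians were -0.040 at stage 14 and 0.0071 for the difference. The changes were those of centring alone, and all 9 reversed genes passed the threshold.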

Other observations

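The genes next to RpL27 in RefSeq order were read for the same comparison. The nearest on one side, Idh3g, a subunit of mitochondrial isocitrate dehydrogenase, read 9.39 and 9.18 in stage 14 control embryos, 9.79 and 9.72 in stage 14 dimm embryos, 5.95 and 9.67 in stage 16 control embryos and 9.10 and 9.94 in stage 16 dimm embryos. Its average dimm effect was 1.09 ± 0.82 (adjusted p = 0.786, limma), with 1 low control array. CG5039, CG4743, CLS, LpR2 and LpR1 had effects of 0.22, 0.05, 0.24, 0.06 and 0.29, and none of them passed.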
